A study of Homo sapiens with 6 samples.

Results

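Genes for the folding, export and disposal of proteins in the endoplasmic reticulum (ER), and for the unfolded protein response, were followed as a list of 50 genes chosen by name. Each gene was taken from the array transcript that the platform's annotation gives to it alone, and where several such transcripts exist, from the one with the highest mean value. By this rule 43 of the 50 genes were measured, out of 14232 genes that have a transcript of their own and 22011 transcripts on the arrays. They comprised 10 of 11 chaperones, 4 of 7 disulfide isomerases, all 11 genes of ER-associated degradation (ERAD), 7 of 8 genes of the translocon, 5 of 7 stress sensors and all 6 of ATF4 and its targets. The transcripts of HSP90B1, PDIA3, ATF6B and MBTPS2 list other genes as well, and P4HB, TXNDC5 and SEC61B were not analysed here.

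MDA-MB-231 is an established human line of triple negative breast cancer, which lacks the estrogen and progesterone receptors and ERBB2 amplification. The cells were transfected by lipofectamine 2000 with control siRNA (3 arrays) or siRNA to HMGA1 (3 arrays), which encodes a chromatin protein that binds AT-rich DNA, and RNA was collected at 48 hours. The replicates are labelled as biological replicates from independent knock-down experiments, both groups share the line and the transfection, and the labels call the treatment shRNA in places and siRNA in others. Values are log2 expression from Affymetrix Human Exon 1.0 ST arrays, so that a difference of 1 stands for a 2-fold change, and in RNA from a whole culture less RNA per cell and fewer cells with a transcript cannot be told apart.

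Proteins for secretion or for membranes enter the ER through the translocon, fold there with the help of chaperones and disulfide isomerases, and are sent to the proteasome by ERAD when they do not fold. Unfolded proteins in the ER are sensed by the kinases EIF2AK3 (PERK) and ERN1 (IRE1) and by ATF6. The response is carried out by the transcription factors ATF4, spliced XBP1 and cleaved ATF6. Chaperone and ERAD genes are raised mainly by spliced XBP1 and cleaved ATF6, and the targets of ATF4 form a subgroup of their own here. Splicing of XBP1, cleavage of ATF6 and phosphorylation by PERK act on RNA form or protein and are not read by a transcript level.

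The binding motifs of these factors lie in the promoters of several members, and the sequences are shown since they group the members by motif. A motif does not assign a member to a single branch of the response, and HERPUD1 and HYOU1 hold motifs of different kinds. They were searched on both strands in RefSeq promoters (GRCh38.p14), from 250 bases before to 50 bases after each annotated start, and 46 of the 50 members have a promoter in that table. The ER stress element, CCAAT and CCACG with 9 bases of any kind between them, was found in 27 of 35116 promoters (0.0769%), and among the members in CALR, CANX, CRELD2, HSP90B1, HSPA5, PDIA6 and XBP1. The capitals mark both parts of the motif, and the sequences of CALR and CRELD2 are printed from the strand opposite to the gene.
HSPA5, chr9:125241382-125241418, minus strand: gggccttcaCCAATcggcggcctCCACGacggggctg
PDIA6, chr2:10812844-10812880, minus strand: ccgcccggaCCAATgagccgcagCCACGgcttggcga
XBP1, chr22:28800594-28800630, minus strand: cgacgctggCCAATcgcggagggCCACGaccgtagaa
CALR, chr19:12938375-12938411, minus strand: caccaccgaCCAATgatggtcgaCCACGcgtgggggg
CRELD2, chr22:49918545-49918581, minus strand: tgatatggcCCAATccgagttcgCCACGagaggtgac

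A second form of the element, ATTGG and CCACG with 1 base between them, was found in 19 promoters (0.0541%), and among the members in HERPUD1, HYOU1 and SDF2L1. The capitals again mark its parts, and HYOU1, which holds it at 2 sites, and SDF2L1 are printed from the strand opposite to the gene.
HERPUD1, chr16:56932016-56932044, plus strand: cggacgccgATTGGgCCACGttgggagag
HYOU1, chr11:119057265-119057293, plus strand: cgcgtactcATTGGaCCACGtcccaggcc
HYOU1, chr11:119057371-119057399, plus strand: cggcctgggATTGGaCCACGtcacggggc
SDF2L1, chr22:21642105-21642133, minus strand: agggttttgATTGGtCCACGcttccgagg

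The element read by ATF4 with C/EBP partners, TGATG and AA with 1 base between them, is shorter and more frequent, in 1270 promoters (3.62%), and was found in ASNS, CHAC1 and HERPUD1. The core TGACGTGG, bound by XBP1, was in 256 promoters (0.729%) and in DNAJC10, HYOU1, SEC62, SSR3, TXNDC5 and VCP, where the match in HYOU1 overlaps the element printed at 119057371. The capitals mark the motifs, and CHAC1 and SSR3 are printed from the strand opposite to the gene.
ASNS, chr7:97872460-97872485, minus strand: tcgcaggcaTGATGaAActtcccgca
CHAC1, chr15:40953253-40953278, minus strand: tggcaggagTGATGcAAcggcagggg
SSR3, chr3:156554150-156554175, plus strand: tttccttgcTGACGTGGctgttatca

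The targeted gene was read by a transcript that also lists the pseudogene HMGA1P8. It was at 10.11, 10.25 and 10.35 on control siRNA replicates 1, 2 and 3 and at 9.81, 9.65 and 9.76 on HMGA1 siRNA replicates 1, 2 and 3, with no overlap and a log2 fold change of -0.50 with a standard error of 0.10 (limma adjusted p = 0.806), a ratio of 0.709 to the control. A second transcript, which lists HMGA1 together with APOE, had groups that overlapped and a log2 fold change of -0.12. The arrays correlated at 0.982 to 0.995 over all transcripts. VIM, a mesenchymal gene, was at 12.80 to 13.06, the estrogen receptor gene ESR1 at 6.57 to 7.07 and the leukocyte gene PTPRC at 4.35 to 4.55. Of the other luminal genes, PGR was at 4.90 to 5.28 and ERBB3 at 7.44 to 7.56. GATA3 was at 8.70 to 8.87 and FOXA1 at 8.04 to 8.55, where the array medians ran from 8.28 to 8.38, so the luminal genes were not uniformly low. Both arrays numbered 3 stood apart from the others: CDH1 (E-cadherin) was at 7.28 and 7.56 on them against 8.78 to 9.40 on the other 4, and EPCAM at 9.003 and 9.225 against 7.74 to 8.23 (adjusted p = 0.00870 and 0.0435 from limma). This split was known from earlier results on the same arrays, so these p-values are not an independent test of it. No source used here says what the number stands for beyond a biological replicate.

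The first comparison asked how the ER genes differed between HMGA1 siRNA and control siRNA. None of the 43 measured members passed an adjusted p of 0.05 in limma, over a background in which 0 of 22011 transcripts passed (0%). At an unadjusted p under 0.05 the count was also 0 of 43 members, where 728 transcripts (3.31%) passed. Of the members 17 were above 0 (39.5%, beside 46.1% of all transcripts) and 26 below, from -0.17 for ATF4 to 0.38 for SSR3. Their median log2 fold change was -0.010 beside -0.012 for all transcripts. In the brightest of 5 equal groups by mean value, which held 27 members, the median was -0.010 over those members and 0.025 over the group. There 10 members (37%) and 60.1% of transcripts were above 0. The 95% interval of the fold change lay within 0.5 either way on the log2 scale, which is 1.41-fold, in 42 of 43 members (97.7%), the exception being SSR3, and in 76.2% of all transcripts. The arrays therefore bound most members' change, and a p that missed the threshold does not show that a member was the same in both groups.

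**Figure D1:**
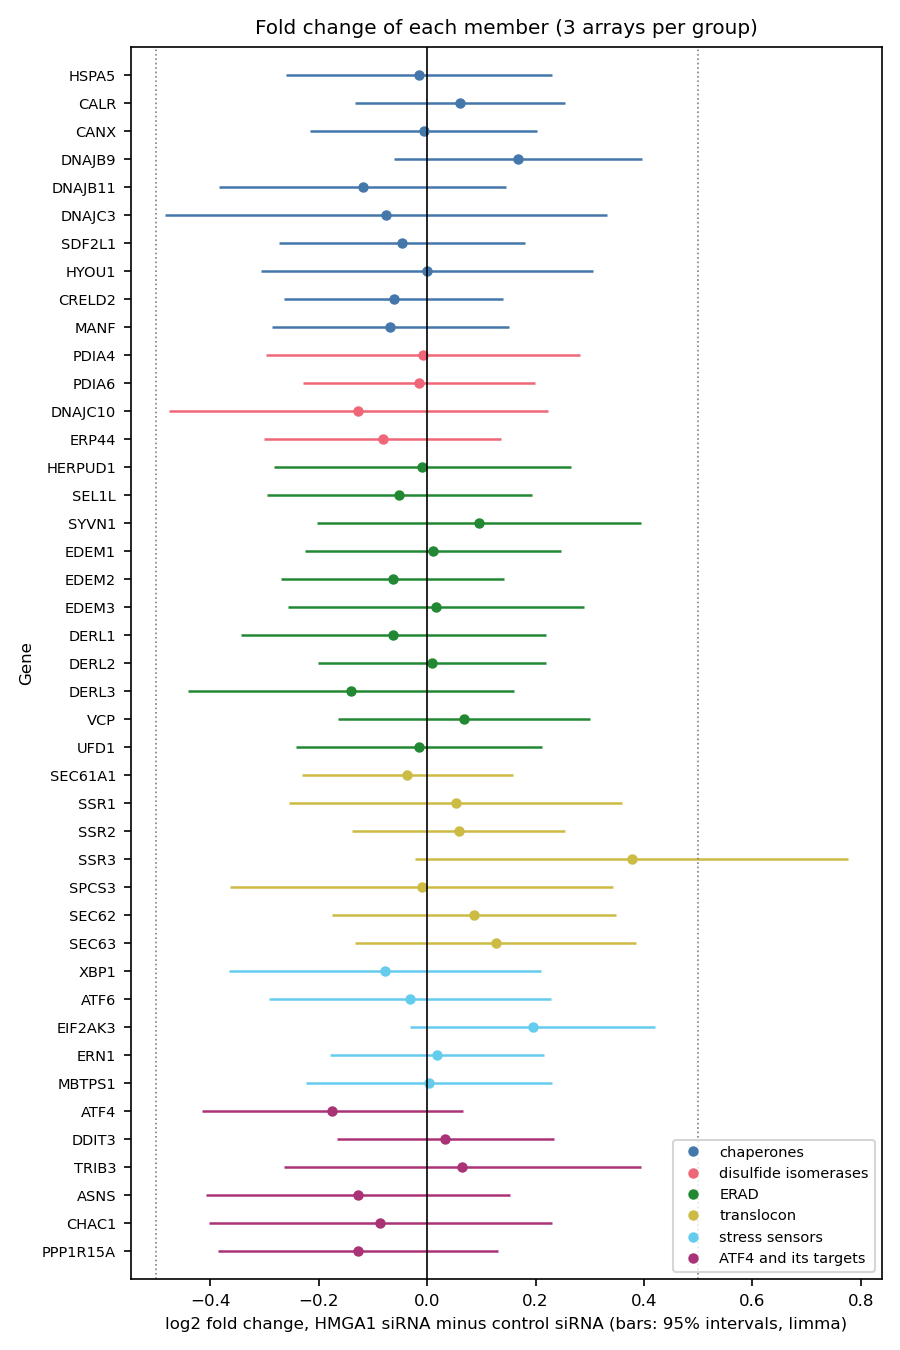
Log2 fold change of each of the 43 measured members (horizontal axis, HMGA1 siRNA minus control siRNA, 3 arrays per group), with points coloured by subgroup, bars for the 95% interval from limma and dotted lines at 0.5 either way. SSR3 alone has an interval that passes a dotted line, ending at 0.78, and the interval of every member includes 0.

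In 3 members the HMGA1 siRNA arrays all exceeded the highest control array, namely DNAJB9, SSR3 and EIF2AK3 (6.98% of the members), where 4.28% of all transcripts did so. In the brightest group this held for 1 of 27 members (3.7%), SSR3, and for 7.31% of transcripts. In no member did the HMGA1 siRNA arrays all fall below the lowest control array, where 3.51% of all transcripts did. The count moved with single arrays. Without HMGA1 siRNA replicate 1 it was 11 (10 higher and 1 lower), without HMGA1 siRNA replicate 2 it was 15 (4 higher and 11 lower), and with fewer arrays separation is more frequent in all transcripts too, at 26.9% and 15.4% in these settings. It was 6 (3 higher and 3 lower) without control siRNA replicate 1, 5 (all higher) without control siRNA replicate 3 and 6 (all higher) without both arrays numbered 3, where 16.6%, 14.9% and 22.8% of all transcripts were apart.

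Among the chaperones, 2 were above 0 and 8 below, with a median log2 fold change of -0.031, or 0.027 without HMGA1 siRNA replicate 1. HSPA5 (BiP), the main Hsp70 chaperone of the ER and a common readout of the unfolded protein response, was at 12.83, 12.86 and 13.02 with control siRNA and at 12.76, 12.91 and 13.00 with HMGA1 siRNA. The groups overlapped throughout, and the log2 fold change was -0.015 (95% interval -0.26 to 0.23, adjusted p = 1.00 from limma). CALR (calreticulin), a lectin chaperone of glycoproteins, was at 13.36, 13.34 and 13.39 and at 13.38, 13.43 and 13.45, a log2 fold change of 0.060. CANX (calnexin), its membrane-bound relative, had a log2 fold change of -0.006.

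DNAJB9 (ERdj4), a co-chaperone of BiP, was at 8.70, 8.63 and 8.76 with control siRNA and at 8.76, 8.99 and 8.83 with HMGA1 siRNA. The groups lay side by side, with the lowest HMGA1 siRNA array at 8.765 and the highest control array at 8.755. The log2 fold change was 0.17 (95% interval -0.06 to 0.40, adjusted p = 1.00 from limma), or 0.10 without HMGA1 siRNA replicate 2. DNAJB11 (ERdj3), another co-chaperone, was at 11.50, 11.55 and 11.52 and at 11.23, 11.60 and 11.38, a log2 fold change of -0.12, with HMGA1 siRNA replicates 1 and 3 below the controls and replicate 2 above them. HYOU1, a large chaperone of the Hsp70 family and exchange factor of BiP, was at 11.19, 11.32 and 11.09 and at 11.17, 11.43 and 11.001. In both groups replicate 2 was its highest array and replicate 3 its lowest, and the fold change between the groups was -0.00 on the log2 scale. The remaining chaperones and co-factors, DNAJC3, SDF2L1, CRELD2 and MANF, had log2 fold changes of -0.076, -0.046, -0.062 and -0.068.

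The disulfide isomerases, which form and rearrange disulfide bonds, were all below 0, with a median log2 fold change of -0.049 over 4 genes, or 0.0097 without HMGA1 siRNA replicate 1 and -0.11 without replicate 2. PDIA4 was at 9.83, 10.05 and 9.84 with control siRNA and at 9.88, 10.10 and 9.73 with HMGA1 siRNA. PDIA6 was at 11.56, 11.53 and 11.54 and at 11.46, 11.64 and 11.47, and both isomerases had differences near 0 (-0.008 and -0.015 on the log2 scale). DNAJC10 (ERdj5), a reductase that also acts in ERAD, was at 10.46, 10.49 and 10.50 and at 10.04, 10.62 and 10.42, a log2 fold change of -0.13 (95% interval -0.48 to 0.22), or 0.035 without HMGA1 siRNA replicate 1. ERP44, which retains clients in the early secretory pathway, was at 11.54, 11.57 and 11.58 and at 11.35, 11.56 and 11.53, a log2 fold change of -0.082, again with replicate 1 the lowest array.

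The ERAD genes were split around 0, with 5 above and 6 below and a median log2 fold change of -0.0092, from -0.034 to 0.056 with 1 array left out. HERPUD1, a scaffold of the degradation complex and a stress-induced gene, was at 10.81, 10.81 and 11.01 with control siRNA and at 10.68, 10.93 and 10.99 with HMGA1 siRNA, a difference of -0.009. SYVN1 (HRD1), the ubiquitin ligase at the centre of ERAD, was at 11.80, 11.77 and 12.10 and at 11.95, 11.86 and 12.15, a log2 fold change of 0.096 (95% interval -0.20 to 0.40). In SYVN1 the arrays numbered 3 were the highest of both groups. EDEM2, which trims mannose from glycoproteins, was at 9.51, 9.46 and 9.62 and at 9.45, 9.49 and 9.48, and DERL3, of the derlin family of ERAD membrane proteins, at 7.85, 8.02 and 8.09 and at 7.997, 7.615 and 7.918. Their log2 fold changes were -0.064 and -0.14, with DERL3 lowest on HMGA1 siRNA replicate 2. SEL1L, EDEM1, EDEM3, DERL1, DERL2, the segregase VCP and its co-factor UFD1 lay between -0.062 and 0.068.

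The translocon genes had a median log2 fold change of 0.058, with 5 above 0 and 2 below, and the median was 0.16 without HMGA1 siRNA replicate 1 and 0.029 without replicate 2. SSR3 (TRAP gamma), a subunit of the translocon-associated protein complex, was at 10.20, 10.32 and 10.18 with control siRNA and at 10.36, 11.01 and 10.47 with HMGA1 siRNA. The groups did not overlap, but replicate 2 lay far above the other HMGA1 siRNA arrays, and the means were 10.24 ± 0.08 (SD, n = 3) and 10.61 ± 0.35 (SD, n = 3). The log2 fold change was 0.38 (standard error 0.17, 95% interval -0.02 to 0.78, adjusted p = 1.00 from limma), and it was 0.18 without HMGA1 siRNA replicate 2 and 0.21 with array weights. SSR1 (TRAP alpha) was at 12.12, 12.05 and 12.33 and at 12.02, 12.24 and 12.41, a log2 fold change of 0.052.

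SEC63, the partner of BiP at the translocon, was at 11.46, 11.45 and 11.51 with control siRNA and at 11.41, 11.76 and 11.63 with HMGA1 siRNA, giving a log2 fold change of 0.13. SEC62, which works with SEC63 on small precursors, was at 9.87, 9.87 and 9.88 and at 9.79, 10.16 and 9.93, a log2 fold change of 0.087, or -0.011 without HMGA1 siRNA replicate 2. A second, dimmer transcript of SEC62 went the other way, at 8.55, 8.51 and 9.10 and at 8.24, 7.86 and 8.37. Its groups did not overlap and its log2 fold change was -0.56 (95% interval -1.02 to -0.10, adjusted p = 1.00 from limma), so the transcripts of SEC62 disagreed. SEC61A1, SSR2 and SPCS3, the pore subunit, TRAP beta and a signal peptidase subunit, had log2 fold changes of -0.036, 0.058 and -0.010.

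The stress sensors had a median log2 fold change of 0.0038, with 3 genes above 0 and 2 below, and from -0.030 to 0.036 with 1 array left out. EIF2AK3 (PERK), which phosphorylates the initiation factor eIF2 alpha, was at 8.72, 8.64 and 8.79 with control siRNA and at 8.82, 9.02 and 8.89 with HMGA1 siRNA. The groups did not overlap, and the log2 fold change was 0.20 (standard error 0.10, 95% interval -0.03 to 0.42, adjusted p = 1.00 from limma). ERN1 (IRE1), the nuclease that splices XBP1, was at 8.54, 8.63 and 8.64 and at 8.62, 8.65 and 8.60, a log2 fold change of 0.019. Its groups overlapped.

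XBP1, whose spliced form encodes the active factor, was at 10.79, 10.86 and 11.12 with control siRNA and at 10.70, 10.87 and 10.97 with HMGA1 siRNA, giving a log2 fold change of -0.077 (95% interval -0.37 to 0.21). ATF6 was at 11.69, 11.69 and 11.68 and at 11.47, 11.83 and 11.65, a log2 fold change of -0.032, and its 3 control arrays lay closer together than its HMGA1 siRNA arrays. MBTPS1, the protease that makes the first cut in ATF6, was at 10.75, 10.69 and 10.89 and at 10.72, 10.76 and 10.87, a log2 fold change of 0.004. Of these genes XBP1 and MBTPS1 were highest on the arrays numbered 3 in both groups.

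ATF4 and its targets had a median log2 fold change of -0.11, with 2 genes above 0 and 4 below. The median was -0.021 without control siRNA replicate 2, -0.17 without control siRNA replicate 1 and -0.038 without HMGA1 siRNA replicate 3. ATF4, translated when eIF2 alpha is phosphorylated, was at 11.48, 11.65 and 11.65 with control siRNA and at 11.28, 11.51 and 11.46 with HMGA1 siRNA. The groups overlapped by control siRNA replicate 1 alone, and the log2 fold change was -0.17 (standard error 0.10, 95% interval -0.42 to 0.07, adjusted p = 1.00 from limma). It was -0.23 without control siRNA replicate 1 and -0.11 without HMGA1 siRNA replicate 1.

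DDIT3 (CHOP), a pro-apoptotic factor downstream of ATF4, was at 7.81, 7.79 and 7.80 with control siRNA and at 7.84, 7.76 and 7.90 with HMGA1 siRNA, giving a log2 fold change of 0.034. PPP1R15A (GADD34), which returns eIF2 alpha to its unphosphorylated form, was at 10.27, 10.50 and 10.24 and at 10.19, 10.32 and 10.11, a log2 fold change of -0.13, or -0.045 without control siRNA replicate 2. The arrays of both genes overlapped between the groups. ASNS (asparagine synthetase) was at 8.62, 8.96 and 8.63 and at 8.62, 8.70 and 8.51, a log2 fold change of -0.13, or -0.018 without control siRNA replicate 2, which stood high. TRIB3, a pseudokinase, and CHAC1, a glutathione-degrading enzyme, had log2 fold changes of 0.065 and -0.086.

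**Figure D2:**
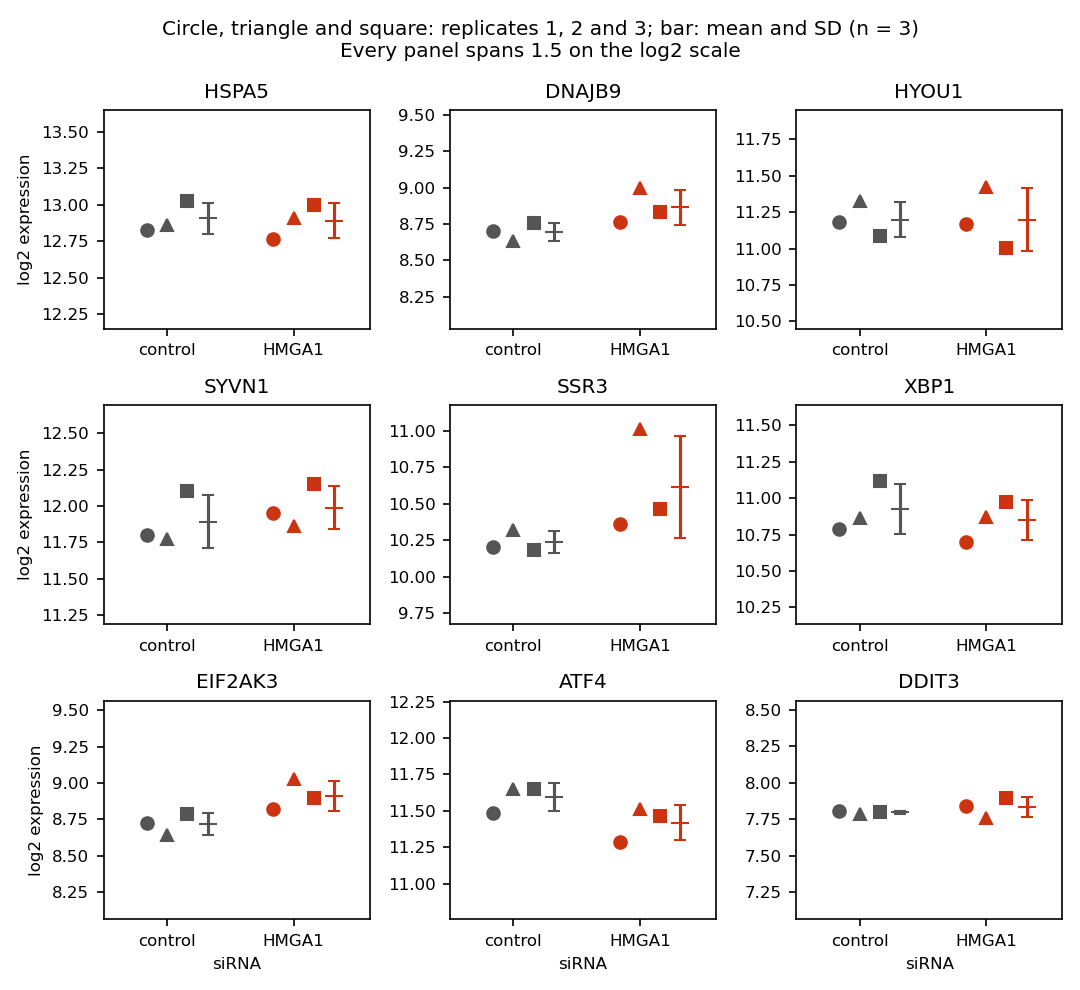
Log2 expression (vertical axis, 1.5 units in every panel) of 9 members on the control siRNA (grey) and HMGA1 siRNA (red) arrays, with circle, triangle and square for replicates 1, 2 and 3 and bars for the mean and SD (n = 3). HSPA5, SYVN1 and XBP1 have their highest array at replicate 3 in both groups, while SSR3 and EIF2AK3 have every HMGA1 siRNA array above the controls.

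Read by promoter motif, the 6 measured members with the ER stress element had log2 fold changes from -0.077 to 0.060, 1 above 0 and 5 below. The 3 with its second form lay between -0.046 and -0.00, the 3 with the ATF4 element between -0.13 and -0.009, and the 5 measured members with the XBP1 core between -0.13 and 0.38. A motif match describes the letters of the window and is no evidence of binding.

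The members were more spread among the HMGA1 siRNA arrays than among the controls. The SD was larger in the HMGA1 siRNA group in 35 of 43 members (81.4%), where this held for 68% of all transcripts, and the median SD was 0.126 against 0.068 in the controls. HMGA1 siRNA replicate 2 lay above replicate 1 in 36 members (83.7%), with a median difference of 0.18, where 39.2% of all transcripts were higher on replicate 2 and the median difference was -0.093. In 23 members (53.5%) replicate 2 was the highest and replicate 1 the lowest of the 3 HMGA1 siRNA arrays, an order seen in 15.3% of all transcripts, and the reverse order was seen in 2 members (4.65%) and 34% of all transcripts. In the control group the median of replicate 2 minus replicate 1 over the members was 0.013. A higher value on replicate 2 than on replicate 1 was not particular to the members. HMGA1 siRNA replicate 2 lay above replicate 1 in 27 of 31 other ER folding and ERAD genes (87.1%). It did so in 19 of 23 glycosylation and signal peptide genes (82.6%) and 24 of 33 integrated stress response and amino acid genes (72.7%). Replicate 2 was highest and replicate 1 lowest in 25.8%, 47.8% and 18.2% of these lists. For this full order only the glycosylation list was near the 53.5% of the members.

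This order also differed by signal level. HMGA1 siRNA replicate 2 had the widest spread of values of the 6 arrays (interquartile range 2.97, the others 2.67 to 2.82) and the lowest median (8.28, the others 8.34 to 8.38). Split by mean value into 5 equal groups, 27 members fell in group 5, the brightest, 6 in group 4 and 10 in group 3. In group 5 as a whole, replicate 2 was highest and replicate 1 lowest in 23.2% of transcripts, and in 16 of the 27 members there (59.3%). Replicate 2 lay above replicate 1 in 61.3% of the transcripts of that group and in 26 of the 27 members there (96.3%). The median of replicate 2 minus replicate 1 was 0.061 over that group. After quantile normalization, replicate 2 was highest and replicate 1 lowest in 18 members and in 17.1% of all transcripts. After median centring the same order held in 26 members and in 22.7% of all transcripts. Both settings were chosen after seeing the data. The part of the width of the arrays in the remaining difference was not tested.

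**Figure D3:**
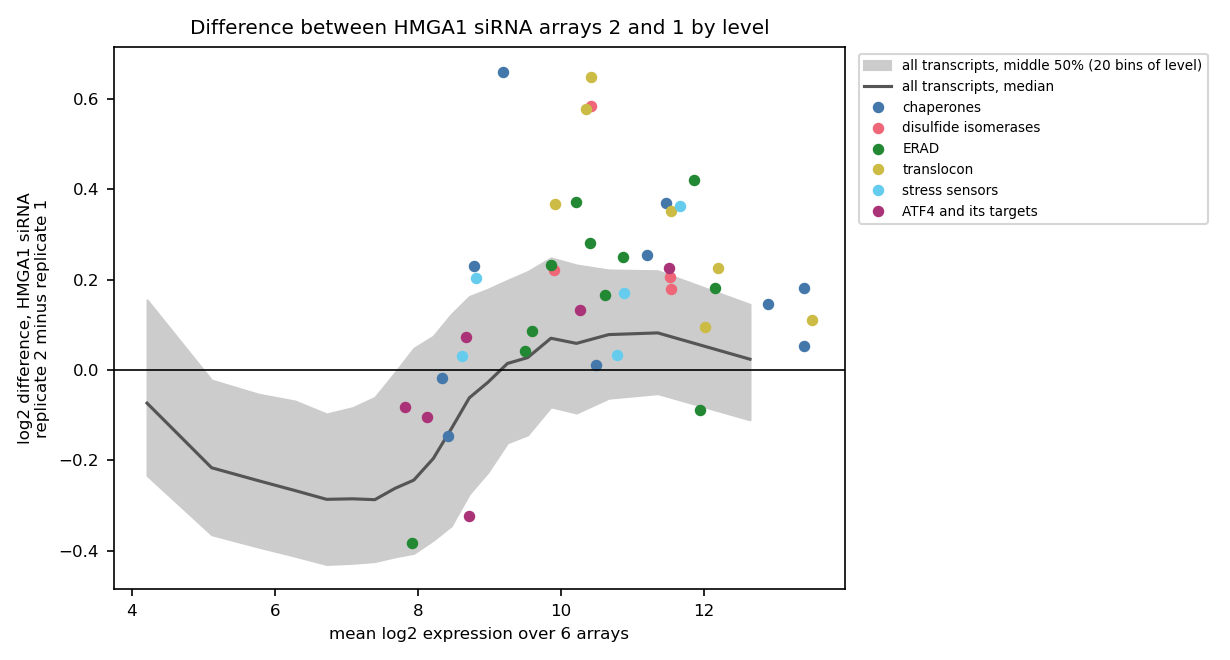
HMGA1 siRNA replicate 2 minus replicate 1 (vertical axis, log2) against the mean log2 value over 6 arrays (horizontal axis), with the 43 members as points coloured by subgroup, the line for the median of all transcripts and the band for their middle 50%. The line lies below 0 for dim transcripts and slightly above it for bright ones, and 36 of the 43 members lie above 0.

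By subgroup the difference was widest in the translocon, where all 7 genes were higher on HMGA1 siRNA replicate 2 than on replicate 1, with a median of 0.35. SPCS3 was at 10.00 on replicate 1, 10.58 on replicate 2 and 10.45 on replicate 3, while its controls lay between 10.34 and 10.37, so that its fold change between the groups of -0.010 joined arrays on both sides of the controls. DNAJC3 (P58IPK), a co-chaperone, was at 8.85, 9.52 and 9.07 on the HMGA1 siRNA arrays, against 9.27, 9.34 and 9.06 on the controls. Members that went the other way, lower on replicate 2 than on replicate 1, included DERL3, TRIB3 and CHAC1.

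**Figure D4:**
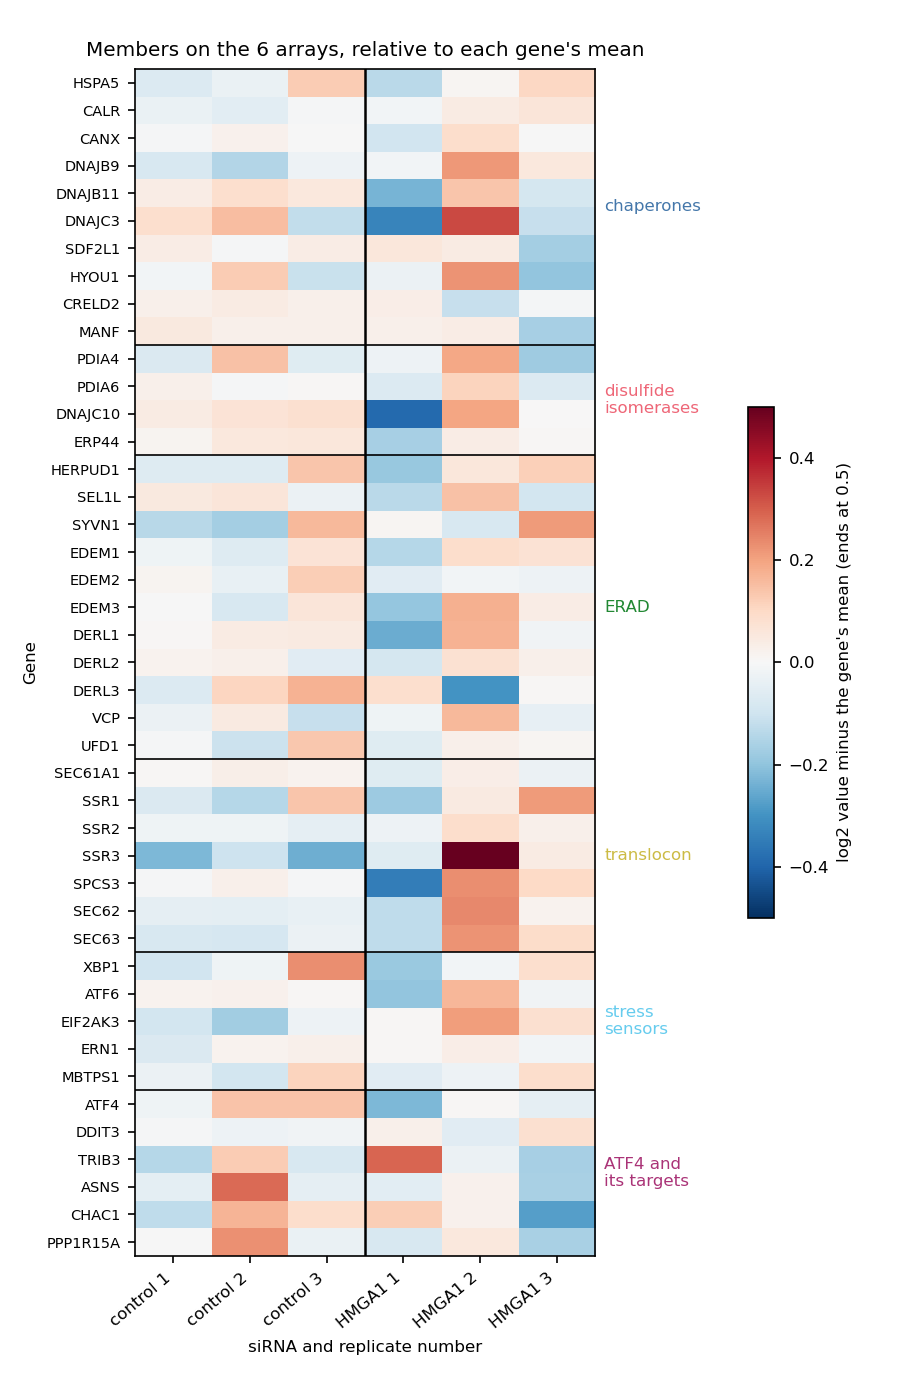
Each measured member (rows, by subgroup) on the 6 arrays (columns), coloured by its log2 value minus its mean over the 6 arrays, with the colour ending at 0.5 either way, a limit that SSR3 passes on HMGA1 siRNA replicate 2. The column of HMGA1 siRNA replicate 1 is mostly blue and that of replicate 2 mostly red, with 35 and 6 members below their group's mean.

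The second comparison set both arrays numbered 3 against the 4 arrays numbered 1 and 2, with the siRNA as a covariate. It was chosen because earlier results on the same arrays had shown this split. None of the members passed an adjusted p of 0.05 in limma, where 103 transcripts passed (0.468%), 44 higher and 59 lower. At an unadjusted p under 0.05 in limma, 3 of 43 members passed (SYVN1, SSR1 and XBP1), beside 3062 of 22011 transcripts. All 3 were among the 27 members of the brightest group, where 936 of 4402 transcripts passed. In both settings the share was smaller in the members. With array weights, 8 members (18.6%) and 6341 transcripts (28.8%) passed the adjusted threshold. The weights were estimated separately for each comparison. Between the siRNA groups they were 6.80 for HMGA1 siRNA replicate 3 and 0.275 to 2.21 for the other arrays.

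In 7 members the array numbered 3 was the highest of its group in both groups (16.3%, beside 16.4% of all transcripts), namely HSPA5, CALR, HERPUD1, SYVN1, SSR1, XBP1 and MBTPS1. It was the lowest in both groups in HYOU1, VCP and PPP1R15A (6.98%, beside 18% of all transcripts). The share highest on number 3 was thus level with that of all transcripts, and the share lowest was below it. All of these members were among the 27 of the brightest group. There 25.9% of members were highest and 11.1% lowest on number 3, beside 21% and 31.4% of that group's transcripts. SYVN1 was higher on number 3 by 0.32 with control siRNA and 0.25 with HMGA1 siRNA, a difference of 0.28 over both (adjusted p = 0.217 from limma). XBP1 was higher by 0.29 and 0.19, a difference of 0.24 over both (adjusted p = 0.328), and SSR1 by 0.24 and 0.28, a difference of 0.26 (adjusted p = 0.309).

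HSPA5 and HERPUD1 differed by 0.17 and 0.19 in the same direction, and their promoters, like that of XBP1, hold the elements printed above. HYOU1, which holds the second form of the element, was lower on number 3 by -0.17 with control siRNA and -0.30 with HMGA1 siRNA, so members with these elements lay on both sides of 0. The median over the members was 0.012, beside 0.028 for all transcripts, with 23 above 0 and 20 below. The subgroup medians ran from -0.14 for ATF4 and its targets to 0.073 for ERAD.

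**Figure D5:**
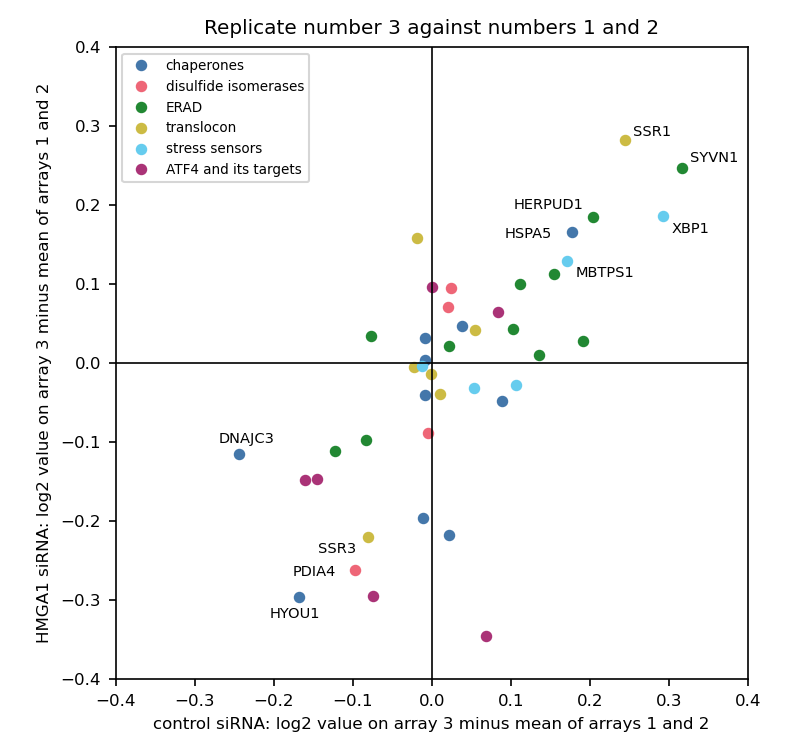
Each of the 43 members by its log2 value on array 3 minus the mean of arrays 1 and 2, with control siRNA on the horizontal axis and HMGA1 siRNA on the vertical axis, coloured by subgroup. SYVN1, SSR1 and XBP1 lie farthest to the upper right, at 0.32 and 0.25, 0.24 and 0.28, and 0.29 and 0.19, and HYOU1 lies at the lower left.

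Other genes of the pathway were read from 3 lists outside the 50 members. For glycosylation and signal peptide handling, 23 of 28 genes were measured, none passed the adjusted threshold in limma, 15 were above 0 and 8 below, and the median was 0.014. SRPRA, which encodes the receptor of the signal recognition particle, was at 12.19, 12.29 and 12.39 with control siRNA and at 11.71, 11.89 and 12.07 with HMGA1 siRNA, without overlap and with a log2 fold change of -0.40. TRAM1, a translocating chain protein, had a log2 fold change of 0.23. Genes of the same steps lay on the other side of 0, with SEC61A2, a form of the pore subunit, at -0.21 and SRP72 and SRP54, of the signal recognition particle, at 0.20 and 0.15, named after their values were seen.

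For other ER folding and ERAD genes, 31 of 36 were measured, none passed the threshold, and the median was 0.074. Of these 25 were above 0 (80.6%) and 6 below, where 46.1% of all transcripts and 60.1% of the brightest group were above 0. CREB3L2, an ER-bound transcription factor, was at 11.80, 11.84 and 11.98 with control siRNA and at 12.07, 12.28 and 12.17 with HMGA1 siRNA, giving a log2 fold change of 0.30 without overlap. SERP1, a stress-associated partner of the translocon, was at 11.06, 10.96 and 10.69 and at 11.17, 11.50 and 11.13, a log2 fold change of 0.36. For the integrated stress response and amino acid genes, 33 of 37 were measured, none passed, 15 were above 0 and 18 below, and the median was -0.0070. CTH, a cysteine-forming enzyme, had a log2 fold change of 0.33 and SLC7A1, a cationic amino acid transporter, -0.18.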

How the data were processed

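RNA of 6 cultures was hybridised to Affymetrix Human Exon 1.0 ST arrays, 3 with control siRNA and 3 with HMGA1 siRNA. The deposited table holds log2 values per transcript, which the authors computed by RMA in oligo. The submitters' processing notes also name limma and the build hg18, with no versions. RMA leaves background signal that compresses the changes of dim transcripts, and the number of arrays limits the precision. All 6 columns were used.

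In the platform's annotation 14432 transcripts list 1 gene symbol, 2408 several and 5171 none, and 14404 matched a RefSeq gene. Groups were compared by two-sided tests of lmFit and eBayes (limma 3.58.1, R 4.3.3, Benjamini-Hochberg over 22011 transcripts, threshold 0.05), a fit tested on simulated data. Members with values on every array were, per subgroup, up to 3 of smallest p between the groups and up to 2 of smallest p for number 3, with HSPA5, XBP1, ATF4, DDIT3, ATF6, EIF2AK3 and ERN1 in any case. Of each other list, up to 2 genes of smallest p per comparison were named. CANX, SPCS3 and DNAJC3 were added after their values were seen. The members, the lists and the comparison of number 3 were chosen with earlier results of these data known. P-values set a difference between means against the spread between biological replicates. That spread includes the shared deviation of both arrays numbered 3, whose source is not given.

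Alternatives were median centring or quantile normalization, a filter on the dimmest 40% of transcripts, array weights, a robust prior with a trend, transcripts with 1 symbol, averaging the transcripts of a gene, a threshold of 0.10, the replicate number as a block, a term for number 3, and leaving out each array or both arrays numbered 3.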

Additional observations from a re-analysis of the deposited data

How the results depend on the processing

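The number of members past the adjusted threshold between the groups was 0 in every alternative that was run. None of the 26 members given array by array passed it in any of 16 other settings, and 12 of them changed sign in at least 1. The number of members whose groups did not overlap was 3, beside 7.79% of all transcripts. It became 6 (3 higher and 3 lower, beside 9.11%) after quantile normalization, 1 (higher, beside 8.16%) after median centring and 6 (all higher, beside 22.8%) without both arrays numbered 3, and ran from 4 to 15 (beside 12.5% to 26.9%) with 1 array left out. The median over the members ran from -0.051 (without HMGA1 siRNA replicate 2) to 0.034 (without HMGA1 siRNA replicate 1). Array weights called 198 transcripts between the groups and no member. For number 3 they called 8 members (18.6%) in place of 0, beside 28.8% of all transcripts, and the median over the members, 0.012, ran from -0.039 (without HMGA1 siRNA replicate 1) to 0.055 (without HMGA1 siRNA replicate 2). The number of transcripts called for number 3, 103, ran from 0 to 1046 with 1 array left out, and was 407 without the dimmest 40% of transcripts, 371 with a trended prior, 212 among transcripts with 1 symbol and 247 at a threshold of 0.10. The cause of these changes was not tested.

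With the replicate number as a block the number of members past the threshold was 0, as without it. Over all transcripts, deviations from the group means correlated between same-numbered arrays at -0.20, 0.26 and 0.53 for numbers 1, 2 and 3, and control siRNA replicate 1 correlated best with HMGA1 siRNA replicate 2 (0.42), so the numbers were not taken to pair the samples, although both arrays numbered 3 deviated together.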

Other observations

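Among the integrated stress response and amino acid genes, 18 of the 33 measured had their lowest value on the array numbered 3 in both groups (54.5%), where 18% of all transcripts did, and 1 had its highest there. The median of number 3 minus the others over this list was -0.15. The share lowest on number 3 also differed by signal level. It was 305 of 4403 transcripts in the dimmest group and 1381 of 4402 (31.4%) in the brightest, and most genes of the list were in the brighter groups. SLC7A11, the cystine transporter, was at 11.06, 11.21 and 10.63 with control siRNA and at 10.95, 11.04 and 10.30 with HMGA1 siRNA, a difference of -0.60 (adjusted p = 0.0864 from limma). MTHFD2, an enzyme of mitochondrial one-carbon metabolism, differed by -0.41 (adjusted p = 0.128), and no gene of the list passed the threshold. Among the other ER folding and ERAD genes, 10 of 31 were highest on number 3 in both groups (32.3%) and 7 were lowest (22.6%). Beside them were 16.4% and 18% of all transcripts, and 21% and 31.4% of the brightest group. TXNDC12 (0.61), WFS1 (0.50) and FKBP7 (0.45) lay higher there and TMX1 (-0.49), ERO1B (-0.44) and UBE2J1 (-0.42) lower, with TXNDC12 and the 3 lower genes named after their values were seen. KRTCAP2 (0.33) and DDOST (0.29), of the oligosaccharyltransferase, lay higher, and none of these genes passed the threshold.

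The transcript that lists HSP90B1 (GRP94) together with HSP90B3P was at 12.78, 12.91 and 13.02 with control siRNA and at 12.63, 12.98 and 13.01 with HMGA1 siRNA, a log2 difference of -0.028. A dimmer transcript that lists HSP90B1 with LRRC28 and HSP90B2P went the other way, at 0.14. The transcript that lists PDIA3 with CATSPER2P1 and CATSPER2 differed by -0.079. That of MBTPS2 with YY2 differed by -0.068 and that of ATF6B with TNXB and TNXA by -0.016. These values cannot be given to a single gene.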
